A study of Mus musculus with 75 samples.

Results

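The 39 protein-coding genes of the 4 mouse Hox clusters were followed through 75 libraries of nuclear RNA, out of 55401 gene identifiers in the count table. Members were taken by symbol: every protein-coding gene named Hoxa, Hoxb, Hoxc or Hoxd with a paralog number. The set was also chosen by its reads, because earlier results of these data had shown that single libraries carried Hox reads. Which libraries carried reads is therefore given as a description, and the tests between groups below use the same counts and are not independent support. Nuclei were sorted by fluorescence from the nucleus accumbens, the ventral part of the striatum, of male mice. All groups carried a Cre-dependent GFP fused to ribosomal protein L10a (LSL-eGFP::L10a), switched on by D1-Cre or D2-Cre, which mark the medium spiny neurons that express the D1 or the D2 dopamine receptor. Daily intraperitoneal injections of saline or of cocaine at 20 mg/kg for 10 days were followed by 30 days of withdrawal and 1 challenge with either, and tissue was collected 1 h after it. In a group name such as D1_SC, the first letter after the line stands for the repeated injection and the second for the challenge (S, saline; C, cocaine). Libraries numbered 10 in D1_SS, 9 in D1_SC, 8 in D1_CS, 10 in D1_CC, 9 in D2_SS, 9 in D2_SC, 10 in D2_CS and 10 in D2_CC. The labels do not say whether a library was 1 mouse or a pool, so p-values measure the spread between these libraries. Age was not given in the labels.

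Hox genes encode homeodomain transcription factors that give cells their position along the head-to-tail axis of the embryo. They lie in 4 clusters in which gene order follows the order of expression along that axis, and their expression domains stop in the hindbrain, so the forebrain, from which the striatum forms, lies in front of them. In cells outside those domains the clusters are kept silent by Polycomb repressors, which Trithorax activators oppose, and Hox proteins bind DNA together with TALE cofactors of the Pbx and Meis families.

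Counts per library ranged from 19825 to 34870414 with a median of 14893119. A total of 71 libraries held at least 1000000 counts and are called deep here. The others were replicate 5 of D1_SC with 651445 counts, replicates 6 and 9 of D2_CS with 26297 and 19980, and replicate 10 of D2_CC with 19825. The log2 ratio of Drd1 to Drd2 counts was below 0 in all 35 deep D2 libraries (−7.76 to −2.53). It was also below 0 in 15 of 36 deep D1 libraries (−4.35 to 2.99, median 0.20), 5 of them among the 8 deep D1_SC libraries, so receptor counts went against the label of those D1 libraries. The D1_SC libraries that the results below turn on, replicates 1, 3, 4 and 9, were among them (−2.17, −0.95, −0.24 and −0.45). A rule on depth, library composition and the receptor ratio failed 21 libraries. Among them were replicates 1, 4, 5 and 9 of D1_SC, replicates 1, 2 and 3 of D2_SC and replicate 4 of D2_CS. Results without the failing libraries are given where they differ. The cut on the receptor ratio lay below 0, so replicates 3 (−0.95) and 6 (−2.11) of D1_SC were kept.

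Promoter sequences are shown first, because the number of CG dinucleotides, which the choice of members did not use, was above that of most promoters in many but not all Hox genes. Of the 39 members, 22 had entries in the RefSeq promoter table (GRCm38.p6), with 24 promoters. The bases upstream of the start, 250 in each, are printed below 5′ to 3′ on the strand of the gene, in lower case with every CG in capitals. The first 3 belong to genes that changed in a comparison below, and the fourth to Hoxa5, the member with the lowest read density. They lie at chr6:52218574-52218823 on the minus strand (Hoxa7), chr11:96318017-96318266 on the plus strand (Hoxb4), chr2:74704365-74704614 on the plus strand (Hoxd8) and chr6:52204588-52204837 on the minus strand (Hoxa5). The Hoxa7 window lies inside the annotated span of that gene (chr6:52214491-52221854), while the other 3 end where the span of their gene starts.
Hoxa7: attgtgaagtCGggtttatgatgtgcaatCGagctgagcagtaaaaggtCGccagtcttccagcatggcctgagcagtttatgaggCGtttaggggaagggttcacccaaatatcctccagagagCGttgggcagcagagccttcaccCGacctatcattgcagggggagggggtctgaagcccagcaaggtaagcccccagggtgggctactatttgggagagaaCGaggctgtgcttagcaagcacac
Hoxb4: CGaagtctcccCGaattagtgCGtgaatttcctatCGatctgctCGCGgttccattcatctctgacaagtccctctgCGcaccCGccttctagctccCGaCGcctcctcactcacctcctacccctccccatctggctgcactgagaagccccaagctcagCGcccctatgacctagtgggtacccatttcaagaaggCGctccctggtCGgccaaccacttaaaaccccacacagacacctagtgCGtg
Hoxd8: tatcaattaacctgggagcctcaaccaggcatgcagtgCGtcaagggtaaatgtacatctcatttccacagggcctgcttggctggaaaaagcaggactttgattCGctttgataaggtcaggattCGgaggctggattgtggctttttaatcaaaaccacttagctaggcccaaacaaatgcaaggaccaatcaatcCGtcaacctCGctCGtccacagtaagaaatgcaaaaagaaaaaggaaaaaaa
Hoxa5: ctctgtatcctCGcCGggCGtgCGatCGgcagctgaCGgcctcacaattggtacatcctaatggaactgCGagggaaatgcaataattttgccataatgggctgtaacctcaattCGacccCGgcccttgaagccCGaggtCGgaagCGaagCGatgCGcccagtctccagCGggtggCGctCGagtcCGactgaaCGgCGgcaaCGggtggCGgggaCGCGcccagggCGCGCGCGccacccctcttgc
The search was for the letters CG, which read the same on both strands and cannot overlap. These windows held 7 CG in Hoxa7, 14 in Hoxb4, 6 in Hoxd8 and 28 in Hoxa5. Across the 24 Hox promoters the number ran from 2 to 35 with a median of 12.5, against a median of 6.0 over all 32851 promoters of the same length. At least 10 CG stood in 62.5% of Hox promoters and in 37.8% of all promoters, and at least 1 CG in 100% and 92.1%. Promoters of 28 developmental regulators of other tissues, a list of tissue-specifying transcription factors such as Pax2, Cdx1 and Myog, were alike, with a median of 11.5 CG and 59.1% holding at least 10. Promoters of olfactory and vomeronasal receptor genes, used as the silent reference below, held a median of 1 CG, and 0.162% held at least 10. The Hox genes and their silent reference thus differed in base composition, with a median transcript GC content of 54.1% for Hox genes and 39.6% for receptor genes.

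Hox genes as a family were read at the level of genes that are silent in this tissue. All members together held 102959 counts, which was 0.0100% of all counts. Because the libraries are nuclear and the authors' gene length is the whole gene span with introns, read density is given here as counts per kilobase of gene span and per 1000000 counts of the library. The background was the density over 1466 olfactory and vomeronasal receptor genes, which encode odour and pheromone receptors of the nose. Over the deep libraries the pooled density was 0.295 for Hox genes and 0.342 for receptor genes. Members ran from 0.223 times background for Hoxa5, which acts in lung and skeletal patterning, to 1.94 times for Hoxb7, with a median of 0.909. Single receptor genes had a median of 0.968 and a range from the 5th to the 95th percentile of 0.428 to 1.88. Within that range lay 34 members. Hoxb7 lay above it, and Hoxa3 (0.356), Hoxa4 (0.278), Hoxa5 and Hoxd4 (0.419) lay below. The member with the highest density was above 56.8% of protein-coding genes.

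Reads were spread thinly over every member rather than held by a few. All 39 members had at least 1 count in 51 of the 71 deep libraries, and 221 of 2769 member and library pairs were at 0. Hoxa4, a hindbrain and cervical gene, was at 0 in 20 of the 75 libraries and Hoxa5 in 18. Hoxc5 held 16.4% of all Hox counts, and its annotated span of 49987 bases, chr15:102967443-103017429 in mm10, was 14.7% of the summed Hox span. Gene overlap moved with the level: 16 members overlap no other annotated gene and had a median of 1.07 times background (0.706 to 1.94). The 15 members that overlap a gene on the same strand had a median of 0.648 (0.223 to 1.52), and the 8 with overlap only on the other strand 0.831. Whether counting used strand, and how it treated reads in overlapping genes, is not given in the sources used here, so levels of those 23 members are uncertain.

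By pooled density the 4 clusters formed 2 pairs, with HoxB and HoxC above HoxA and HoxD. HoxB (10 genes, chr11:96194316-96368256) had a pooled density of 1.06 times background, and HoxC (9 genes, chr15:102921103-103036852) 1.04 times. HoxA (11 genes, chr6:52155590-52260880) was at 0.684 and HoxD (9 genes, chr2:74668310-74765142) at 0.657. HoxB or HoxC was the highest cluster in 70 of 71 deep libraries, and HoxA or HoxD the lowest in 67. The longest spans of HoxA, HoxC and HoxD, those of Hoxa3 (0.356), Hoxc5 (0.962) and Hoxd3 (0.527), overlap genes on the same strand, so pooled levels are uncertain. Medians over single members were 0.758 in HoxA, 1.05 in HoxB, 1.05 in HoxC and 0.791 in HoxD. Only 2 HoxA members overlap no other gene, against 6, 4 and 4 in HoxB, HoxC and HoxD. Within the clusters the members ran from Hoxa5 to Hoxa7 (1.50), from Hoxb2 (0.608) to Hoxb7, from Hoxc6 (0.629) to Hoxc4 (1.70) and from Hoxd4 to Hoxd11 (1.52). The paralog groups, numbered from head to tail, were also pooled within libraries. Paralogs 1 to 3 were the lowest of 3 in 70 of 71 deep libraries, with a median over libraries of 0.591 against 0.921 for groups 4 to 8 and 0.929 for groups 9 to 13. The longest spans of groups 1 to 3 were Hoxa3 (44275 bases, 0.356) and Hoxd3 (36516 bases, 0.527). Both overlap genes on the same strand, and pooling weighs members by span. Medians over single members did not follow that order. They were 0.892 for the 8 members of paralog groups 1 to 3, which pattern the hindbrain, 0.803 for the 15 of groups 4 to 8, and 0.992 for the 16 of groups 9 to 13, which pattern the lumbar and tail regions and the limbs. Among members that overlap no other gene, the medians were 1.14 (2 members), 1.38 (4) and 1.06 (10) in the same order.

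**Figure D1:**
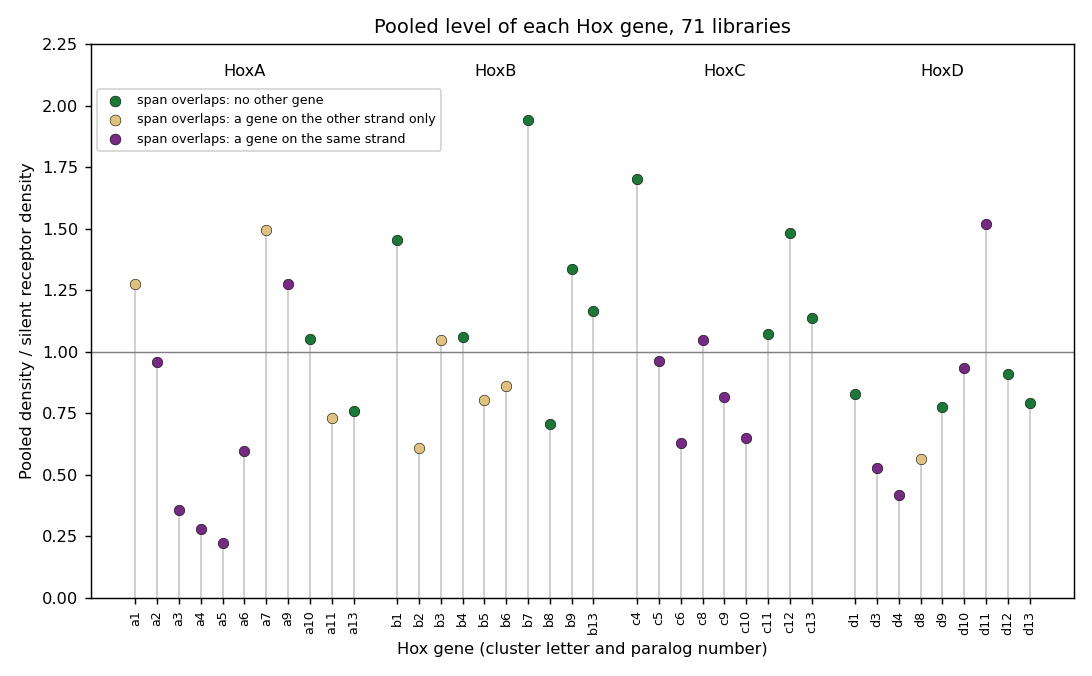
Read density of each of the 39 Hox genes relative to silent receptor genes over the deep libraries (vertical axis, pooled density over silent receptor density), by cluster and paralog number along the horizontal axis, with colours for genes whose span overlaps no gene, a gene on the other strand only, or a gene on the same strand. Points run from 0.223 for Hoxa5 to 1.94 for Hoxb7, and the lowest ones overlap a gene on the same strand.

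Most of the genes that act with or on Hox genes were read above background in the same libraries, and all 7 medium spiny neuron markers were, with Bcl11b the lowest at 5.06 times. More than 2 times background was reached by 8 of 9 TALE cofactors, 25 of 30 Polycomb repressors and 9 of 10 Trithorax activators and demethylases. The lowest were Meis1 (1.53), Phf19 (1.15) and Kdm6a (1.61), within the range of single receptor genes. Median density over background was 3.36 for 9 TALE cofactors (Meis2, the highest, 8.34), 2.79 for 30 Polycomb repressors and 3.36 for 10 Trithorax activators and H3K27 demethylases (Psip1 10.8). Forebrain and striatal transcription factors, 15 genes, had a median of 3.28, with the progenitor factor Gsx2 lowest at 0.973. The 28 developmental regulators of other tissues had a median of 1.17 and ran from 0.514 (Pitx1) to 1.58 (Cdx1), so none was above 2. Across the other 52 genes annotated in the Hox clusters, most of them non-coding, the median was 0.887.

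The Hox level differed more between libraries than between groups. Each library's Hox density was divided by its own background density, and this ratio had a median of 0.823 over the deep libraries. Ratios are given as lowest, median and highest. They were 0.624, 0.824 and 1.46 in D1_SS, 0.755, 2.02 and 5.46 in D1_SC, 0.556, 0.854 and 3.12 in D1_CS, and 0.496, 0.638 and 1.14 in D1_CC. In the D2 line they were 0.442, 0.638 and 1.93 in D2_SS, 0.794, 0.973 and 2.07 in D2_SC, 0.230, 0.804 and 10.6 in D2_CS, and 0.622, 0.862 and 3.09 in D2_CC. Every group overlapped every other. The order of the medians ran from D1_CC and D2_SS up to D1_SC, and D1_SC fell to a median of 0.827 without its libraries failing that rule.

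**Figure D2:**
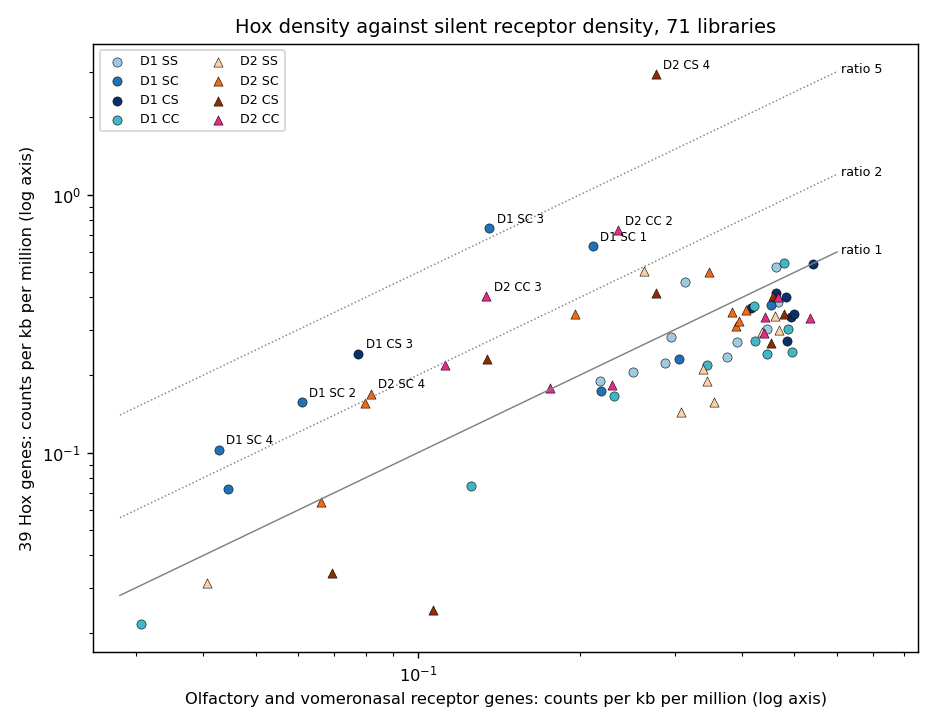
Hox read density (vertical axis) against silent receptor density (horizontal axis) in each of 71 deep libraries, both in counts per kilobase per 1000000 counts on log axes, coloured by group, with lines at ratios 1, 2 and 5 and names beside the libraries above 2. Most libraries lie near or below the line of ratio 1; replicate 4 of D2_CS (10.6) and replicate 3 of D1_SC (5.46) lie above the line of ratio 5.

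A ratio above 2 was reached in 9 libraries. These were replicates 1 (2.99), 2 (2.57), 3 (5.46) and 4 (2.40) of D1_SC, replicate 3 of D1_CS (3.12), replicate 4 of D2_SC (2.07), replicate 4 of D2_CS (10.6), and replicates 2 (3.09) and 3 (3.01) of D2_CC. Background itself varied between libraries, from 0.0307 to 0.541 in density, and moved with the ratio. In the 18 libraries with background under 0.2 the median ratio was 1.74 and 12 were above 1. In the 53 others it was 0.793 and 9 were above 1. Developmental regulators of other tissues moved with the Hox genes: their own ratio had a median of 2.57 in the 9 libraries, against 1.20 in the other 62. Replicate 4 of D2_CS was the exception, at 0.954. Both ratios have the same background as divisor, with a median of 0.134 in the 9 libraries and 0.387 in the other 62, so they are not independent. The part of background level in the ratio was not tested.

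The heat map of members by library separates 2 patterns of high libraries, one in which most of the family was above background and one in which single genes were. A library is said to carry a member when it held at least 10 counts of it at 5 times background or more. That was so for 73 of 2925 member and library pairs (2.50%), in 16 libraries and for 31 members. The share was 0.629% for receptor genes (692 of 109950) and 1.62% for developmental regulators (34 of 2100). The receptor genes themselves set the background, so their share cannot show a rise of that set as a whole. The share over all genes is not reported here. Without replicate 4 of D2_CS and replicate 3 of D1_SC it was 1.55% for Hox genes (44 of 2847).

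**Figure D3:**
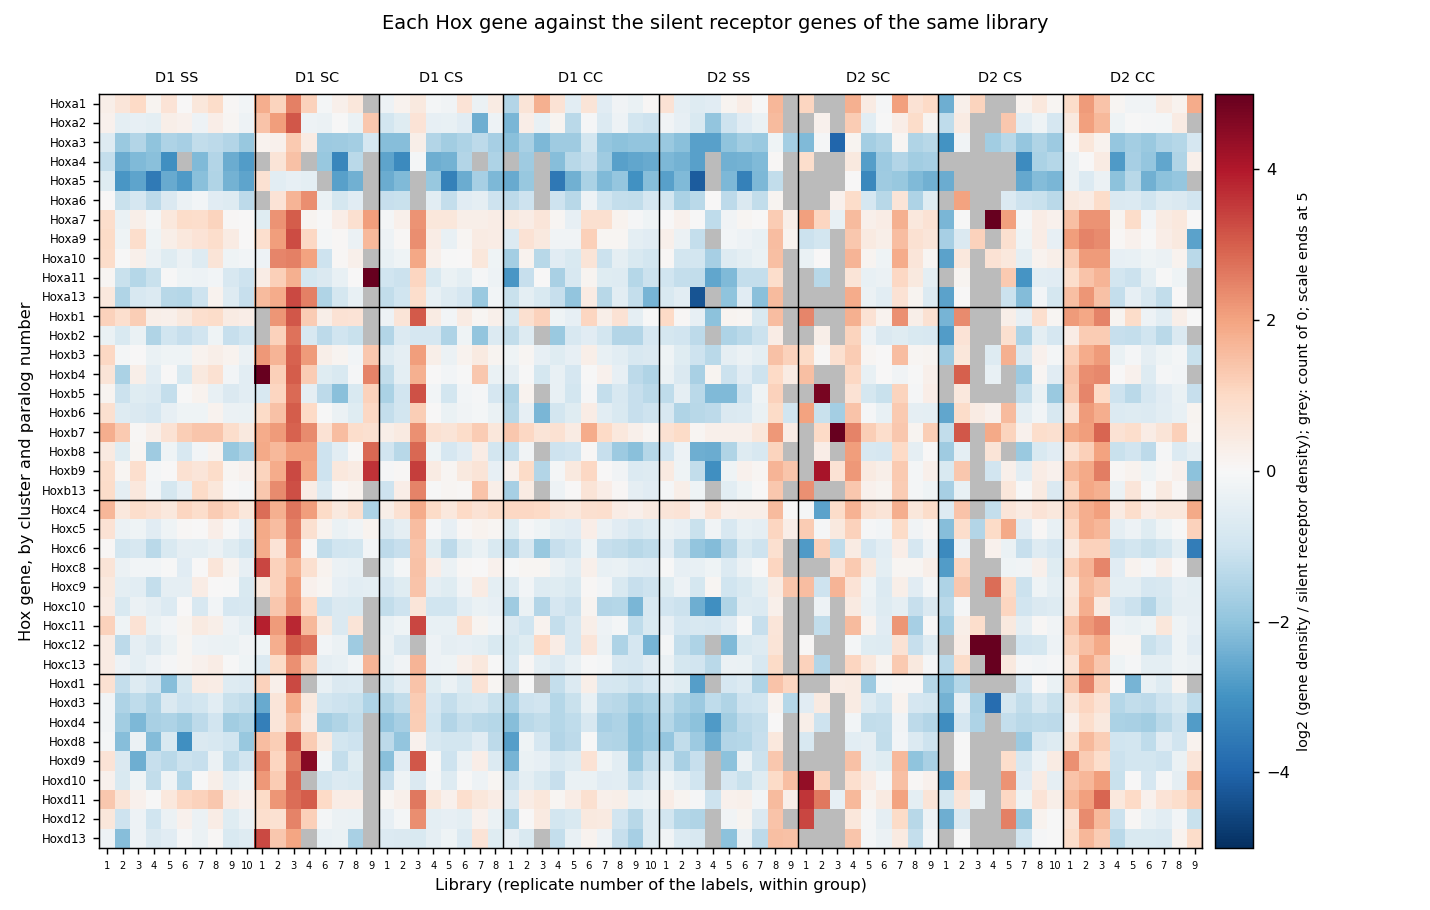
Each of the 39 Hox genes (vertical axis, by cluster) in each deep library (horizontal axis, by group), coloured by the log2 of its read density over that of the silent receptor genes of the same library, with the scale ending at 5 and grey for a count of 0. Most cells lie near background. Replicate 3 of D1_SC is above background in 38 of the 39 genes, as are replicate 2 of D1_SC and replicates 2 and 3 of D2_CC at lower median ratios. Replicate 4 of D2_CS has single cells far above the rest and many at 0.

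Replicate 3 of D1_SC showed the first pattern. All 39 members had reads there, 38 were above background, with Hoxa5 the exception at 0.756, and 25 (64.1%) were carried, against 18 of the receptor genes (1.23%) and 14 of the 28 developmental regulators. Its 10318334 counts included 2600 Hox counts, and the highest member was Hoxc11, a hindlimb and kidney regulator, with 63 counts at 13.7 times background. Hoxb3, a hindbrain gene, had 265 counts and a level of 25.7 CPM, that is, counts per 1000000 counts of the library. Replicate 3 of D1_CS and replicate 3 of D2_CC carried 8 members each, at no more than 10.9 and 7.56 times background. Having 38 members above background was shared by replicate 2 of D1_SC and replicates 2 and 3 of D2_CC. Their median member ratios were 2.44, 3.52 and 3.09, against 6.33 in replicate 3 of D1_SC.

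Replicate 4 of D2_CS showed the second pattern and held the largest Hox values of the series. Of its 1367040 counts, 464 were of Hoxc13, which controls hair keratin genes, 439 of its neighbour Hoxc12, and 359 of Hoxa7, a gene of the thoracic region. These are 339, 321 and 263 CPM, or 159, 625 and 129 times background. The 3 genes held 92.7% of the 1362 Hox counts of that library, and only 16 members had any read. Hoxc5 had 37 counts and Hoxc9 had 23.

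The reads of that library were uneven over the neighbourhood. Hoxc13 (chr15:102921103-102928814) and Hoxc12 (chr15:102936757-102938609) are adjacent at the end of HoxC. The next gene, the non-coding RNA Hotair (chr15:102944062-102947730), had 1 count, and Hoxc11 (chr15:102954427-102957708), Hoxc10 and Hoxc8 had 0, while Hoxc9, which lies between Hoxc10 and Hoxc8, was carried with its 23 counts at 7.01 times background. Around Hoxa7 (chr6:52214491-52221854) the non-coding Hoxaas3 had 5 counts and Hoxa9 had 0. Receptor genes were raised singly too: 48 of 1466 (3.27%) were carried, up to 57.5 times background for Olfr1306, while 0 of 28 developmental regulators were.

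Markers of other cells stood beside these values. The 5 hindbrain and spinal neuron markers summed to 351 CPM in replicate 4 of D2_CS, against 19.8 to 158 in the 7 other deep D2_CS libraries. Lmx1b gave 348 counts, Slc6a5 117 and Tph2 15, while Lbx1, a defining gene of the hindbrain and spinal cord, was at 0. The 4 blood cell markers summed to 126 CPM against 8.28 to 78.9, of which Cd3e, part of the T cell receptor complex, gave 165 counts, Ptprc 7, and the haemoglobin genes Hbb-bs and Hba-a1 0. Medium spiny neuron markers summed to 1023 CPM against 1508 to 5159. The part of other cells in the Hox reads was not tested.

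Several shallower libraries carried 1 to 5 members each. Replicate 1 of D1_SC had 103 counts of Hoxb4 (95% exact Poisson interval 84.1 to 125, counting error only), a gene of the hindbrain and of blood stem cells, at 34.9 CPM and 48.9 times background. It also carried Hoxc11 (30 counts), Hoxc8 (22), Hoxd13 (20) and Hoxc4 (78). Its astrocyte markers summed to 652 CPM and its oligodendrocyte markers to 799, against 90.8 to 517 and 95.8 to 431 in the 7 other deep D1_SC libraries, and their part in its Hox reads was not tested. Replicate 9 of D1_SC had 24 counts of Hoxa11 at 40.3 times background. Neighbouring genes were carried together in replicate 1 of D2_SC, with Hoxd10 (35 counts), Hoxd11 (46) and Hoxd12 (14). Replicate 2 of D2_SC carried Hoxb5 (53) and Hoxb9 (64) of one cluster, without the genes between them, and Hoxd11 (33) of another. Replicate 3 of D2_SC carried Hoxb7 alone (40 counts, 31.9 times background), and replicate 3 of D2_CS carried Hoxc12 alone (14 counts, 45.1 times), beside a receptor gene, Olfr1179, at 212 times. Replicate 4 of D1_SC, a deeper library with 11543108 counts, carried Hoxd9 (29 counts, 23.6 times) and Hoxd11 (30).

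Between groups, counts were tested with edgeR's quasi-likelihood test in 14 comparisons, and p-values were adjusted by Benjamini-Hochberg across every gene in the fit, with 0.05 as threshold. Hox genes passed in 6 comparisons, as 20 member and comparison pairs from 10 members, and 29 members passed in none. Comparisons within a line share groups, so the same high library enters several of them. Hoxa4 and Hoxa5 were too low to be tested in the D1 fit and in the fit of both lines, and Hoxa6 also in the D2 fit.

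In the D2 line, Hoxc12, Hoxc13 and Hoxa7 rose after repeated cocaine with a saline challenge (D2_CS) relative to D2_SS, and fell in D2_CC relative to D2_CS. Passing genes made up 0.0859% of all genes tested in the first comparison and 0.252% in the second, and 3 of 36 Hox genes tested passed in each. Here and below, CPM is given as lowest, median and highest over all libraries of a group, also those under 1000000 counts. Zeros in such libraries can lower a median. Hoxc12 was at 0, 0.445 and 321 CPM in D2_CS with 5.80 as the next highest, at 0, 0.274 and 0.799 in D2_SS, and at 0, 0.453 and 1.25 in D2_CC. Its log2 change was 7.17 ± 1.15 (SE) for D2_CS minus D2_SS (adjusted p = 0.00498) and −6.37 ± 1.09 for D2_CC minus D2_CS (adjusted p = 0.00634). The groups overlapped apart from replicates 4 and 3 of D2_CS. In 7 of 38 fits that left out 1 library, that without replicate 4 among them, the gene was too low to be tested. It kept both calls in the 31 others, all of which held replicate 4. Without all libraries failing the quality rule it was tested and reversed, at −0.21 (adjusted p = 0.999734) and 1.07 (adjusted p = 0.944).

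Hoxc13 and Hoxa7 showed the same layout with a higher base level. Hoxc13 was at 0, 2.34 and 339 CPM in D2_CS, next highest 4.03, and at 0, 2.09 and 3.99 in D2_SS. It changed by 4.94 ± 0.92 (adjusted p = 0.0132) and by −4.37 ± 0.90 (adjusted p = 0.0281). Hoxa7 was at 0, 2.63 and 263 CPM in D2_CS, next highest 4.33, and at 0.368, 2.87 and 4.62 in D2_SS, and changed by 4.15 ± 0.83 (adjusted p = 0.0254) and by −3.52 ± 0.80 (adjusted p = 0.0381). In D2_CC, Hoxc13 was at 1.10, 2.75 and 50.4 CPM, the last being 1 count in the library of 19825 counts, and Hoxa7 at 0, 3.58 and 8.27. The next highest D2_CS library lay within or near the D2_SS range for both. Of 38 fits that left out 1 library, Hoxc13 lost its first call in 1 and its second in 9. Hoxa7 lost them in 8 and 10. Without replicate 4 the changes from D2_SS were 0.31 for Hoxc13 and 0.036 for Hoxa7, with adjusted p = 0.99994 for each, and those from D2_CS to D2_CC were 0.27 and 0.59 with adjusted p = 0.999858 and 0.966.

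The same library entered the comparison of the lines after repeated cocaine and a saline challenge. In D1_CS minus D2_CS, 3.59% of all genes passed and 3 of 37 Hox genes tested were lower in D1_CS. Hoxc12 changed by −6.85 ± 0.94 (adjusted p = 4.94e-06), Hoxc13 by −4.35 ± 0.74 (adjusted p = 0.000188) and Hoxa7 by −3.68 ± 0.68 (adjusted p = 0.000536). In D1_CS these genes were at 0, 0.643 and 0.736 CPM for Hoxc12, 1.95, 3.35 and 6.03 for Hoxc13, and 2.70, 4.46 and 5.51 for Hoxa7, with medians above those of D2_CS. Without replicate 4 of D2_CS the changes were −0.75, 0.30 and 0.46, with adjusted p of 0.503, 0.703 and 0.555.

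In the D1 line, Hoxb4, Hoxd8, Hoxd9 and Hoxc11 rose when mice given repeated saline were challenged with cocaine (D1_SC minus D1_SS). In this comparison 11.3% of all genes passed in either direction, and the 4 of 37 Hox genes (4 higher, 0 lower) stood near that share. The Hox median change was 0.36 against −0.07 over all genes, but with limma-voom, which weights libraries by quality, it was −0.089 and 12 of 37 Hox genes were above 0. Hoxb4 was at 0, 0.712 and 34.9 CPM in D1_SC, next highest 3.68, and at 0.432, 1.03 and 2.67 in D1_SS. It changed by 2.38 ± 0.60 (adjusted p = 0.00931), and without replicate 1 of D1_SC by 0.27 (adjusted p = 0.642). The median of D1_SC lay below that of D1_SS for this gene, so the higher mean rested on 1 library.

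Hoxd8 and Hoxd9, neighbours at chr2:74704615-74707933 and chr2:74697727-74700208, changed by 1.47 ± 0.43 (adjusted p = 0.0208) and 1.63 ± 0.49 (adjusted p = 0.0255). Hoxd8 was at 0, 0.474 and 3.88 CPM in D1_SC and at 0.0863, 0.579 and 0.964 in D1_SS, and Hoxd9 at 0, 0.356 and 3.05 and at 0.114, 0.447 and 1.25. Both medians were again lower in D1_SC, over all 9 libraries including the one of 651445 counts. Hoxd8 changed by 0.86 without replicate 3 of D1_SC (adjusted p = 0.154) and passed without the libraries failing the quality rule (1.66, adjusted p = 0.0407), and Hoxd9 by 0.91 without replicate 4 (adjusted p = 0.229). Hoxc11 changed by 1.30 ± 0.44 (adjusted p = 0.0496), and by 0.73 without replicate 1 (adjusted p = 0.189). It lost its call in 30 of 37 fits that left out 1 library, Hoxd8 in 7 and Hoxd9 in 8.

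**Figure D4:**
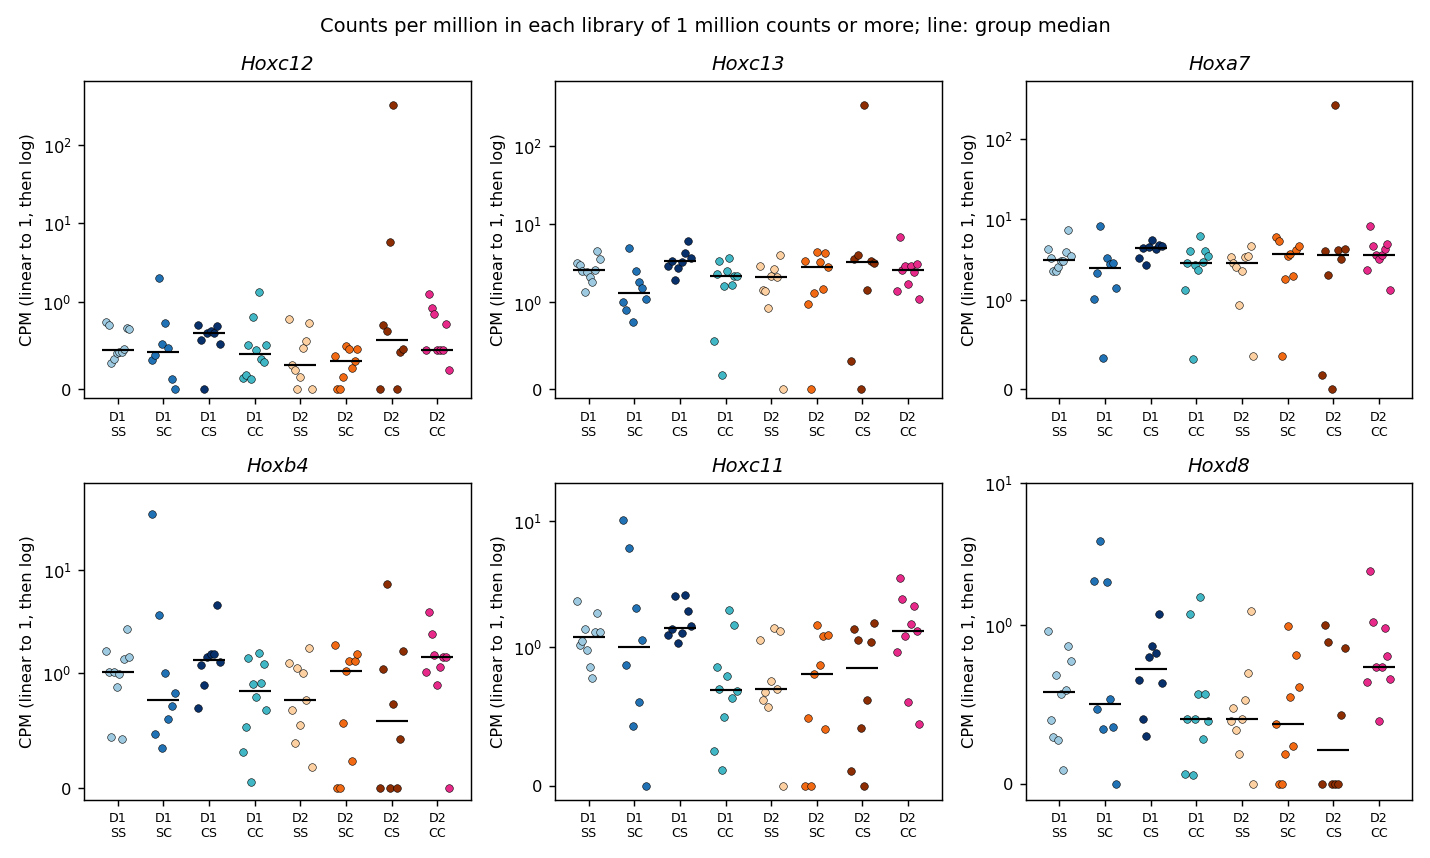
Level of Hoxc12, Hoxc13, Hoxa7, Hoxb4, Hoxc11 and Hoxd8 in every deep library (CPM, vertical axis, linear up to 1 and log above) by group, with a line at the median of the deep libraries. In each panel the groups overlap and 1 or a few libraries lie apart, for example replicate 4 of D2_CS at 321 CPM of Hoxc12 and replicate 1 of D1_SC at 34.9 CPM of Hoxb4.

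Against D1_SC, the group given repeated cocaine and a cocaine challenge (D1_CC) had lower Hox levels. In D1_CC minus D1_SC, 10.5% of all genes passed and 6 of 37 Hox genes fell: Hoxb4, Hoxc11, Hoxd8, Hoxa13, Hoxa11 and Hoxb3, the last chosen after its values were seen. The median change was −0.62 for Hox genes and 0.19 for all genes, but with limma-voom the Hox median was 0.075 and 24 of 37 Hox genes were above 0. Hoxc11 changed by −1.94 ± 0.45 (adjusted p = 0.00559), from 0, 0.869 and 10.2 CPM in D1_SC, next highest 6.11, to 0.114, 0.689 and 1.94 in D1_CC. Of the 20 passing changes, this one kept its call in 37 of 37 fits that left out 1 library, with a change of −1.37 without replicate 1 of D1_SC and −1.57 (adjusted p = 0.0288) without replicate 3. It also passed without the libraries failing the quality rule (−1.55, adjusted p = 0.0263). The ranges overlapped, and the highest values were those of these 2 D1_SC libraries.

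The other 5 each lost their call without a single D1_SC library, and all but Hoxb4 lost it without other single libraries too. Of 37 fits that left out 1 library, Hoxb4 lost its call in 1 and Hoxd8 in 6. Hoxa13 and Hoxa11 lost theirs in 15 each, and Hoxb3 in 30. Hoxb4 changed by −2.83 ± 0.62 (adjusted p = 0.00362), and by −0.73 without replicate 1 (adjusted p = 0.196). Hoxd8 changed by −1.43 ± 0.42 (adjusted p = 0.0264), and Hoxa13, which patterns digits and the genital tract, by −1.31 ± 0.43 (adjusted p = 0.0434). Without replicate 3 these were −0.82 (adjusted p = 0.180) and −0.65 (adjusted p = 0.283). Hoxa11, a forelimb and kidney gene, changed by −1.35 ± 0.44 (adjusted p = 0.0435) and by −0.44 without replicate 9 (adjusted p = 0.348). Hoxb3 changed by −1.01 ± 0.34 (adjusted p = 0.0479) and by −0.74 without replicate 3 (adjusted p = 0.138).

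Hoxb4 was also the only Hox gene that passed between the lines after a first cocaine challenge. In D1_SC minus D2_SC, 1.17% of all genes passed, and Hoxb4 changed by 2.56 ± 0.64 (adjusted p = 0.0220), or by 0.42 without replicate 1 of D1_SC (adjusted p = 0.889). It was at 0, 1.06 and 1.89 CPM in D2_SC, whose median was above that of D1_SC.

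**Figure D5:**
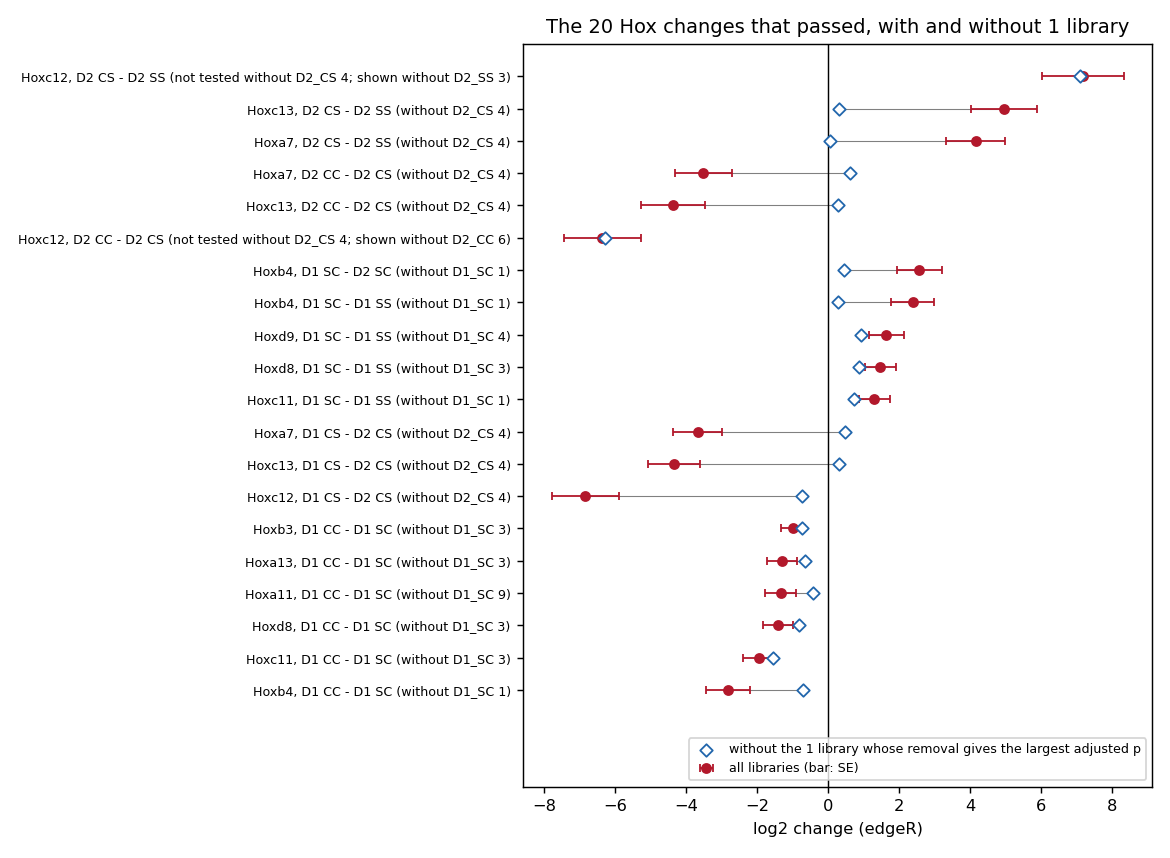
Log2 change of the passing Hox genes (horizontal axis) with all libraries (filled circles, bars are SE) and without the 1 library whose removal gave the largest adjusted p (open diamonds), for the 20 gene and comparison pairs; Hoxc12 in the D2 line was not tested without replicate 4 of D2_CS. The changes of Hoxc13 and Hoxa7 in D2_CS and of Hoxb4 in D1_SC move close to 0, while Hoxc11 in D1_CC minus D1_SC moves from −1.94 to −1.57.

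No Hox gene passed in the 8 other comparisons, in some of which the family still lay to one side. In D1_CC minus D1_CS, 8.31% of all genes passed with edgeR, and 0 of 37 Hox genes did (3 at an unadjusted p under 0.05; 0 with DESeq2 and 4, all lower, with limma-voom, which called 12% of all genes). The Hox median was −0.46, and the smallest p belonged to Hoxc13 (−0.67 ± 0.28, adjusted p = 0.152). In D2_CC minus D2_SS, 0.0% of all genes passed, and all 36 Hox genes tested had changes above 0 with a median of 0.57. Of them 0 passed with edgeR (2 at an unadjusted p under 0.05), 0 with DESeq2 and 15, all higher, with limma-voom, which called 23.3% of all genes. In D1_CC minus D2_CC, 0.0204% of all genes passed, all 37 Hox genes had changes below 0 with a median of −0.69, and 10 were at an unadjusted p under 0.05 in edgeR (0 passed in edgeR and DESeq2, and 4, all lower, with limma-voom, which called 4.93% of all genes). Its smallest p belonged to Hoxc11 (−1.14 ± 0.41, adjusted p = 0.202). D2_CC held 2 of the libraries with a ratio above 2, and members of 1 library share its background, so their common sign is not a count of independent genes.

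The remaining 5 comparisons also leaned to one side without a call. Changes were above 0 for 31 of 37 Hox genes in D1_CS minus D1_SS, 2 of 37 in D1_CC minus D1_SS (median −0.27 against 0.03 over all genes), 30 of 36 in D2_SC minus D2_SS, 30 of 36 in D2_CC minus D2_SC and 32 of 37 in D1_SS minus D2_SS. D1_CS minus D1_SS and D1_CC minus D1_SS each called 0.0% of all genes and 0 Hox genes, with 0 at an unadjusted p under 0.05 in edgeR; DESeq2 called 0 in both. Limma-voom called 3 Hox genes higher in the first, where it called 43.9% of all genes, and 0 in the second. D2_SC minus D2_SS called 0.0% of all genes, 0 Hox genes with edgeR and DESeq2 (4 at an unadjusted p under 0.05) and 11, all higher, with limma-voom, which called 13.6% of all genes. Its smallest p belonged to Hoxb5 (2.24 ± 0.75, adjusted p = 0.834), carried in replicate 2 of D2_SC, and Hoxd10 (1.66, adjusted p = 0.834), carried in replicate 1. D2_CC minus D2_SC called 0.0% of all genes and 0 Hox genes in the 3 tools (2 at an unadjusted p under 0.05 in edgeR). The saline groups of the lines, D1_SS minus D2_SS, differed in 0.0255% of all genes and in 0 Hox genes in the 3 tools, with 0 at an unadjusted p under 0.05 in edgeR.

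Cofactors and regulators of Hox genes passed in several comparisons, most of them in the D1 line. Of 9 TALE cofactors 4 rose in D1_SC minus D1_SS, among them Meis2 (1.35, adjusted p = 0.00771) and Pbx4 (1.00, adjusted p = 0.00608). In D1_CC minus D1_SC 4 fell, with Pbx4 at −1.20 and Meis2 at −1.21. Of 30 Polycomb genes 6 rose and 6 fell in these comparisons, among them Jarid2, a subunit of the methylating complex PRC2 (1.38 and −1.10). In D1_CC minus D1_CS 6 rose, among them Ring1 (1.39), and in D1_CS minus D2_CS 2 were lower, Pcgf3 (−1.12) and Rybp (−1.30). Of 10 Trithorax activators and demethylases 3 rose in D1_SC minus D1_SS, among them Kdm6b, which removes the Polycomb mark (1.43, adjusted p = 0.00561), and 2 rose in D1_CC minus D1_CS (Men1 1.84, Psip1 1.28). In D1_CC minus D1_SC 0 of the 10 passed, and Kmt2b was lower in D1_CS minus D2_CS (−2.70) and in D2_CC minus D2_CS (−2.36). These p-values are from edgeR, and the background shares of the comparisons given above (11.3% in D1_SC minus D1_SS, 10.5% in D1_CC minus D1_SC and 8.31% in D1_CC minus D1_CS) apply to them. Without the libraries failing the quality rule, 0.0% of all genes passed in D1_CC minus D1_CS and in D2_CC minus D2_CS. The calls given for those comparisons were therefore lost. In D1_CS minus D2_CS the share fell from 3.59% to 0.0296%. Which genes of these lists kept a call in the other comparisons is not reported here.

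Forebrain factors and other developmental regulators are given with the same background shares, 11.3% of all genes in D1_SC minus D1_SS and 10.5% in D1_CC minus D1_SC. Without the libraries failing the quality rule these shares were 4.82% and 5.87%. Of 15 forebrain and striatal factors 7 rose in D1_SC minus D1_SS, among them Six3 (1.73) and Foxp1 (1.08), and 3 fell in D1_CC minus D1_SC, among them Rarb (−1.26). All 5 oligodendrocyte markers also rose in D1_SC minus D1_SS, and so did Drd2 (1.56, adjusted p = 0.0332 in edgeR). Their part in the Hox values was not tested. Of 28 developmental regulators of other tissues 0 passed in D1_SC minus D1_SS (3 at an unadjusted p under 0.05 in edgeR), and Pax2 (−1.42) and Cdx1 (−1.31) fell in D1_CC minus D1_SC. Among 18 other genes of the clusters that could be tested, Hoxb3os fell in the same comparison (−1.62, adjusted p = 0.00831), as did Gm11536 (−1.46, adjusted p = 0.0174), and Hoxb3os rose in D1_SC minus D1_SS (1.35).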

How the data were processed

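Counts and FPKM were deposited by the authors for 75 libraries, with a label for every column. featureCounts, DESeq2 and mm10 are named in the submitters' processing notes; versions, aligner, annotation and strand setting are not given in the sources used here. Libraries were made from sorted nuclei with a stranded total RNA kit for low input, per the labels' protocols. The FPKM values deposited by the authors gave only gene lengths, which equalled the GENCODE M21 gene span for all 39 Hox genes and for 54743 of 55062 identifiers compared. Symbols were matched by identifier without version (55141 of 55401).

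The members and the lists of other genes were chosen with earlier results of these data known. The deposited counts were tested with edgeR 4.0.16 (quasi-likelihood, TMM scaling, filterByExpr, two-sided, Benjamini-Hochberg over all genes, threshold 0.05) in R 4.3.3. One fit held the 37 D1 libraries (37721 genes), one the 38 D2 libraries (36090) and one all 75 (39250). The fits were checked on simulated counts. Density, ratios to the silent genes and carried genes are descriptions, with exact Poisson intervals for counts (scipy 1.17.1). Members were named by these rules: the 8 with the smallest adjusted p, the highest and lowest of each cluster, the largest ratios in single libraries, and those at 0 most often. Alternatives were DESeq2 1.42.0, RLE scaling, limma 3.58.1 voom with library weights, no filter, the replicate number as a block, and leaving out libraries. The quality rule failed libraries with under the line median divided by 3 counts, few detected genes or outlying composition. It also failed those whose log2 ratio of Drd1 to Drd2 passed the midpoint between the medians of the lines. Values of some genes of the other lists are not reported here.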

Additional observations from a re-analysis of the deposited data

Results flagged for a closer look

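Of 38 groups of deep libraries examined, 11 held a library whose gap to its nearest neighbour was a large share of the group's range, where chance gives about 1 in 20. These genes were chosen with such libraries known, so the count is no test against that rate. Replicate 4 of D2_CS had 4 of them: a Hox to background ratio of 10.6 (next highest 1.71), Hoxc13 at 339 CPM (next 4.03), Hoxc12 at 321 CPM (next 5.80) and Hoxa7 at 263 CPM (next 4.33). Hoxb4 reached 34.9 CPM in replicate 1 of D1_SC (next 3.68), and Hoxa11 6.63 CPM in replicate 9 of D1_SC (next 1.74). The ratio reached 3.12 in replicate 3 of D1_CS (next 0.997) and 1.93 in replicate 8 of D2_SS (next 0.774).

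The other 3 were single genes at low level. Hoxc13 was at 6.85 CPM in replicate 2 of D2_CC (next 3.12) and Hoxa13 at 2.02 CPM in replicate 6 of D1_CC (next 1.09). Hoxc12 was at 0.0 CPM in replicate 3 of D1_CS, where the next lowest library had 0.522. None of these 11 values was assigned a cause here.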

How the results depend on the processing

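Of 120 values that the 20 passing changes took under 6 other settings, 37 kept direction and call, 68 kept direction only and 15 reversed. The counts of passing Hox genes were 4, 6, 1, 3, 3 and 3 in D1 SC minus D1 SS, D1 CC minus D1 SC, D1 SC minus D2 SC, D1 CS minus D2 CS, D2 CS minus D2 SS and D2 CC minus D2 CS. In that order they became 2, 3, 1, 0, 0 and 0 with DESeq2, which replaces outlying counts. DESeq2 called 15.0%, 20.1%, 1.28%, 1.54%, 0.0111% and 0.0194% of all genes there. RLE scaling gave 1, 2, 0, 3, 1 and 1, beside 8.13%, 10.7%, 0.897%, 0.803%, 0.0166% and 0.0166% of all genes. Limma-voom gave 0, 1, 1, 0, 7 and 0, beside 7.25%, 45.1%, 30.1%, 0.0382%, 11.5% and 0.0% of all genes. Its call in D1 SC minus D2 SC was Hoxd10, lower in D1 SC. Without the libraries failing the quality rule the counts were 1, 1, 0, 0, 0 and 0. The shares of all genes were then 4.82%, 5.87%, 0.0346%, 0.0296%, 0.0% and 0.0%. Limma-voom also called 3 in D1 CS minus D1 SS, 4 in D1 CC minus D1 CS, 11 in D2 SC minus D2 SS, 15 in D2 CC minus D2 SS and 4 in D1 CC minus D2 CC, where edgeR called 0; the cause was not tested. RLE scaling moved the median of all genes by up to 0.40 (D1 CS minus D2 CS).

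With the replicate block the 6 counts were 0, 0, 0, 1, 0 and 0, beside 4.98%, 3.89%, 0.0561%, 2.14%, 0.0% and 0.0% of all genes. The numbers did not pair libraries: the median correlation of same-numbered libraries was −0.038 in D1 and 0.026 in D2, and 5 of 36 and 2 of 35 correlated best with their own number.

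Leaving out 1 library gave 1 to 6, 2 to 9, 0 to 2, 0, 0 to 3 and 0 to 3 calls in the same order (2 libraries left out for the third and 1 for the fourth, chosen after seeing the data), and 0 in the other within-line comparisons. Reversed changes, in DESeq2, limma-voom and without failing libraries where they reversed, were as follows. In D1 CS minus D2 CS they were 0.68, 0.064 and 0.31 for Hoxa7, 0.58 and 0.36 for Hoxc13 (DESeq2, without failing libraries) and 0.036 and 0.63 for Hoxc12 (limma-voom, without failing libraries). In D2 CC minus D2 CS they were 0.57 and 0.56 for Hoxa7, 0.31 and 0.39 for Hoxc13 and 0.19 and 1.07 for Hoxc12, with the same settings. Hoxc12 in D2 CS minus D2 SS was −0.21 without failing libraries, and Hoxb4 in D1 SC minus D2 SC −0.30 with limma-voom. Leaving out 1 library gave −3.71 to 0.59 for Hoxa7 and −4.64 to 0.27 for Hoxc13 in D2 CC minus D2 CS, and 0.46 and 0.30 in D1 CS minus D2 CS.

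Carried pairs numbered 184 at 3 times background and 17 at 10 times. Median ratios moved beyond their spread in D1_CC (0.948 with members overlapping no gene, 0.891 by exon length) and D1_SS (1.22 and 1.15), and 74 of 78 density values did not. In the 4 libraries under 1000000 counts, at most 3 members had any reads.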
